A study of Mus musculus with 83 samples.

Results

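Imprinted growth genes were followed in the proximal colon over adult life. The group holds 10 genes chosen by name, H19, Igf2, Dlk1, Meg3, Peg3, Mest, Plagl1, Cdkn1c, Grb10 and Igf2r, out of 37764 genes listed in the count table. Polyadenylated RNA was sequenced from the colon of 83 male C57BL/6J/Ukj mice, an inbred strain, of which 16 were 3 months old, 16 were 9 months, 16 were 15 months, 17 were 24 months and 18 were 28 months. The mice were not treated and carried no altered allele, so the groups differ in age, and each mouse was sampled at a single age. Libraries were made in 3 batches, and each batch held 4 to 7 mice of every age.

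Most genes are read from both parental chromosomes, but an imprinted gene is read mainly from the copy of the mother or from that of the father, because DNA methylation laid down in the germ line marks the copies differently. Many imprinted genes act on growth before and after birth, paternally expressed ones often promoting it and maternally expressed ones often restraining it, and many of them are turned down once growth ends. They lie in clusters in which a long noncoding RNA and coding genes are read from opposite parental copies. Parental copies of an inbred strain do not differ in sequence, so each count below is the sum of both alleles, and the choice of allele itself was not measured.

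Sequences are shown for the promoters of Dlk1 and Meg3, because these neighboring genes, which are read from opposite parental copies, had the largest falls among the members. The windows come from RefSeq (GRCm38.p6), run 5′ to 3′ along the gene from 250 bases before to 50 bases after its start, and were found for 8 of the 10 members. Capitals mark the CpG dinucleotides, at which DNA methylation is placed, and the letters TATAAA on either strand, the core of a TATA box. The Dlk1 window lies at chr12:109452573-109452872 on the plus strand and the Meg3 window at chr12:109540746-109541045 on the plus strand.
Dlk1: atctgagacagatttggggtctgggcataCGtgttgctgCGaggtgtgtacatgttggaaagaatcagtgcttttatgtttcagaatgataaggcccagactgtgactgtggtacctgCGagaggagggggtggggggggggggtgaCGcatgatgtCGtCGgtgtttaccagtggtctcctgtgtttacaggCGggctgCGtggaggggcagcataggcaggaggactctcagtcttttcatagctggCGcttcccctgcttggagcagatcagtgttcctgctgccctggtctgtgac
Meg3: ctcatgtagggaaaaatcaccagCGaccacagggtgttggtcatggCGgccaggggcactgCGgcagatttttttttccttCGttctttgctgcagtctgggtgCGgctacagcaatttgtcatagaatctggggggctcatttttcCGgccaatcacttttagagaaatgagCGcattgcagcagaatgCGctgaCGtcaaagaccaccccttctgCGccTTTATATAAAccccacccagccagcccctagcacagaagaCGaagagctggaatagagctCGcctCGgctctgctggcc
Meg3 has another RefSeq window further downstream, at chr12:109545148-109545447, with 1 CpG and no TATAAA, and the window shown is the one at the 5′ end of the gene. The Dlk1 window holds 9 CpGs and no TATAAA, and the Meg3 window shown holds 13 CpGs and 2 overlapping matches of TATAAA, 1 on each strand. Of all 32851 promoter windows of this length, 45.8% held at least 9 CpGs, 37.9% at least 13 CpGs and 13.6% a TATAAA on either strand. These letters are a description of the sequence, and methylation of these windows was not analysed here.

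The depth on genes was 23026370 to 75838290 read pairs for a mouse (median 35495123). No pair of mice of the same age, out of 649, agreed within counting noise, so each mouse was 1 replicate. CPM below is the count scaled by the TMM-normalized library size (trimmed mean of M values, a scaling that sets most genes to no change), and TPM further divides by the length of the exons, so that levels can be compared between genes. A gene was called when its adjusted p-value was below 0.1 in edgeR's quasi-likelihood test, in a model of age and library batch with Benjamini-Hochberg adjustment over 18325 tested genes. The 5 epithelial markers checked (Epcam, Cdh1, Krt8, Krt20 and Vil1) were expressed at every age, with a summed level between 5353 and 10581 CPM. The colon wall also holds muscle, and 5 mice had low levels of its markers. They were mice 10, 12 and 16 at 3 months and mice 4 and 6 at 9 months. Their summed level of 5 smooth muscle markers lay between 736 and 1367 CPM, against a median of 3468 CPM over all mice. The next lowest, mouse 13 at 9 months and mouse 7 at 3 months, had 1809 and 1894 CPM and were kept. Below, the 5 are called mice of low muscle content from these markers alone. This choice was made after the marker levels were seen, and values without these 5 mice are given where they change a result.

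The members differed widely in level. At 3 months the median level was 55.0 TPM for Igf2r, 15.1 TPM for Cdkn1c, 11.3 TPM for Meg3, 4.21 TPM for Grb10, 3.62 TPM for Plagl1, 3.50 TPM for Peg3, 2.25 TPM for Mest, 1.28 TPM for Dlk1, 0.205 TPM for H19 and 0.111 TPM for Igf2. The receptor that clears the growth factor was thus read at a far higher level than the growth factor itself. H19 had a median of between 5 and 9 counts in each age group and did not pass the filter on low counts, so 9 of the 10 members were tested. Dlk1 passed through the younger mice, since 0.282 CPM, the level that the filter asks for, was reached by 16 of 16 mice at 3 months and by 3 of 18 at 28 months. Igf2 reached it in 37 of the 83 mice, with 6 of 16 at 3 months and 4 of 16 at both 9 and 15 months. At 24 and 28 months 12 of 17 and 11 of 18 mice reached it, so Igf2 passed mainly through the older mice.

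**Figure D1:**
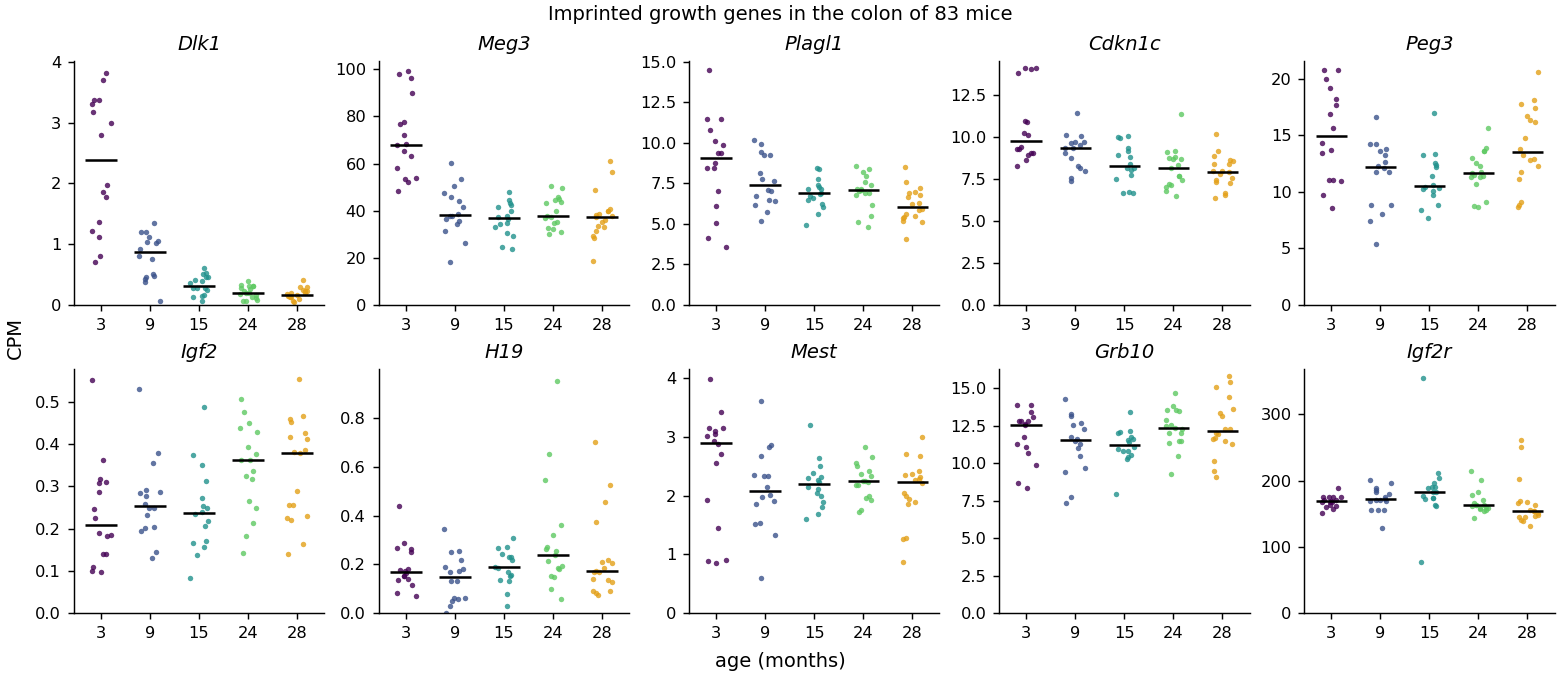
Level of each of the 10 members in every mouse, in CPM on a linear axis that starts at 0, by age in months. Each point is a mouse and each bar the median of the age group, which for Dlk1 falls from 2.38 CPM at 3 months to 0.169 CPM at 28 months.

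Between 3 and 28 months, 5 of the 9 tested members were called, 4 of them lower at 28 months (Dlk1, Meg3, Plagl1 and Cdkn1c) and 1 higher (Igf2). Over all tested genes 49.4% were called in this comparison, so the share of called members was near that of all genes. The median log2 fold change was -0.26 over the 9 tested members and -0.01 over all tested genes. Over the 5 ages together 7 members were called, against 54.9% of all tested genes, and those not called were Mest and Igf2r. Between 3 and 9 months 4 members were called, all lower at 9 months (Dlk1, Meg3, Peg3 and Cdkn1c), where 8.69% of all tested genes were called. From 9 to 15 months 1 member was called (Dlk1, lower), against 0.431% of all tested genes. From 15 to 24 months 1 member was called (Igf2, higher), against 13.5% of all tested genes. From 24 to 28 months 0 members were called by edgeR and 0 by DESeq2, against 11.7% of all tested genes, and 0 of the 9 tested members had an unadjusted edgeR p-value under 0.05. A course over age that is not a straight line was called for 3 members (Dlk1, Meg3 and Peg3), against 16.2% of all tested genes. These comparisons share mice, so they are not independent of each other.

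**Figure D2:**
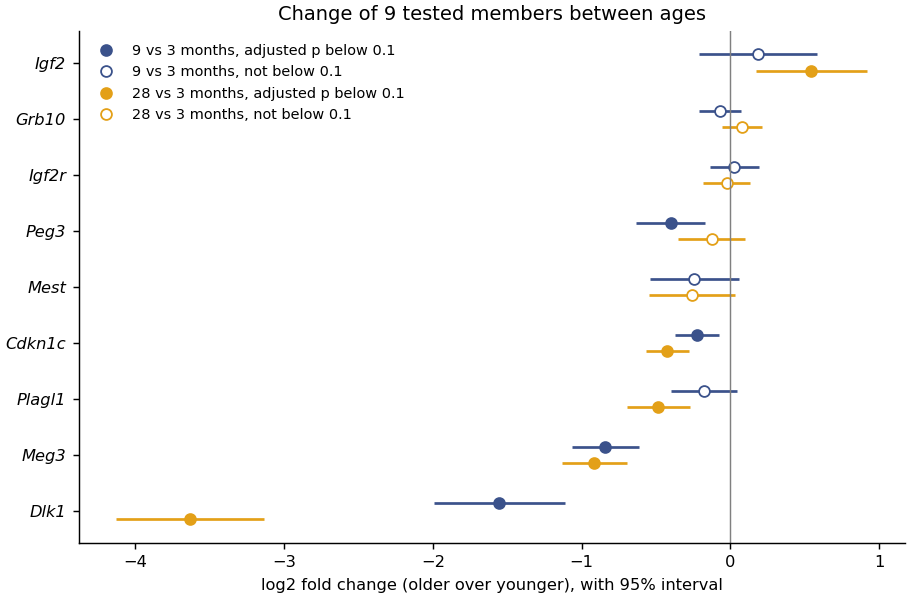
Log2 fold change of the 9 tested members from 3 to 9 months and from 3 to 28 months, older over younger, with its 95% interval from the edgeR fit. Filled points have an adjusted p below 0.1 and open points do not. Dlk1 stands farthest to the left, at -1.55 and -3.63, and Igf2 lies to the right at 28 months, at 0.54.

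Dlk1 encodes a transmembrane protein with EGF-like repeats that holds back the maturation of adipocytes and other precursor cells, and it is read from the paternal chromosome. The gene (ENSMUSG00000040856) lies on chromosome 12 from 109452823 to 109463336 on the plus strand (GRCm38). Dlk1 ranged from 0.701 to 3.82 CPM at 3 months with a median of 2.38 CPM, and from 0.0635 to 1.35 CPM at 9 months with a median of 0.866 CPM. It ranged from 0.0583 to 0.602 CPM at 15 months (median 0.318), from 0.0608 to 0.393 CPM at 24 months (median 0.20) and from 0.0423 to 0.406 CPM at 28 months (median 0.169). Every mouse at 28 months lay below every mouse at 3 months, a separation in this direction that 51 of the 18325 tested genes showed, or 0.278%. Dlk1 fell from 3 to 28 months by 3.63 (log2 scale, standard error 0.25, adjusted edgeR p = 3.2e-21), and its level at 3 months was 12.4 times that at 28 months. Only 5 of the tested genes had a larger fall. The fall was -3.19, -3.48 and -4.21 in the 3 library batches, each of which called it.

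The called steps in the fall of Dlk1 lay between the first 3 ages, and its median was lower still at 24 and 28 months. The step was -1.55 from 3 to 9 months (standard error 0.22, adjusted edgeR p = 5.2e-07), with all 16 mice at 9 months below the median at 3 months. From 9 to 15 months it was -1.27 (standard error 0.26, adjusted edgeR p = 0.00477), again with all 16 mice below the median of the younger group. From 15 to 24 months the log2 fold change was -0.62 with a 95% interval from -1.19 to -0.05 (adjusted edgeR p = 0.170), and from 24 to 28 months it was -0.19 with an interval from -0.78 to 0.40 (adjusted edgeR p = 0.772). The counts behind the later ages are small, with a median of 11.5 read pairs at 15 months, 8 at 24 months and 7.5 at 28 months. With smooth muscle and fibroblast scores as covariates the step from 15 to 24 months was -0.75 and was called (adjusted edgeR p = 0.0967). Within single batches the step from 9 to 15 months was -1.67, -0.82 and -1.36 and was called in none of them. The step from 3 to 9 months was -1.15, -1.79 and -1.75, with the first not called (adjusted edgeR p = 0.542).

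Meg3 is a long noncoding RNA of the same cluster, read from the maternal chromosome, and is known as a restraint on cell growth. The gene (ENSMUSG00000021268) lies downstream of Dlk1 from 109541001 to 109571726 on the plus strand. Meg3 ranged from 48.2 to 99.4 CPM at 3 months with a median of 68.1 CPM, and from 18.1 to 60.2 CPM at 9 months with a median of 38.2 CPM. Its median was 36.8 CPM at 15 months (23.9 to 48.1), 37.8 CPM at 24 months (30.1 to 50.3) and 37.5 CPM at 28 months (18.9 to 61.0). All 16 mice at 9 months lay below the median at 3 months, and 13 of them lay below every mouse at 3 months. Meg3 fell by 0.84 on the log2 scale from 3 to 9 months (standard error 0.11, adjusted edgeR p = 1.0e-07), and by 0.76, 0.87 and 0.89 in the 3 batches, with the first not called (adjusted edgeR p = 0.276). The later steps were -0.14, 0.13 and -0.07, none of them called, and the lowest adjusted edgeR p among them was 0.520. From 3 to 28 months Meg3 fell by 0.91 (standard error 0.11, adjusted edgeR p = 2.0e-10) and by 0.71, 1.03 and 1.03 in the 3 batches.

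The other transcripts of the Dlk1-Dio3 cluster were placed beside these members. Rian and Mirg are maternally expressed long noncoding RNAs that follow Meg3 on the same strand, and their transcripts carry small nucleolar RNAs and microRNAs. Rian ranged from 20.6 to 44.6 CPM at 3 months (median 35.1) and from 7.49 to 19.4 CPM at 9 months (median 16.3), so that no mouse at 9 months reached the lowest mouse at 3 months. Such a separation was seen for 5 of the 18325 tested genes, or 0.0273%, and Mirg was another of them. The Rian medians were 13.3 CPM at 15 months, 13.3 CPM at 24 months and 10.8 CPM at 28 months. Rian fell by 1.09 on the log2 scale from 3 to 9 months (standard error 0.10, adjusted edgeR p = 1.2e-13) and by 1.58 from 3 to 28 months (standard error 0.10, adjusted edgeR p = 2.1e-23). Mirg had a median of 2.32 CPM at 3 months (1.28 to 3.57), 0.739 CPM at 9 months (0.400 to 1.27) and 0.431 CPM at 28 months (0.151 to 0.608). It fell by 1.56 in the first interval (standard error 0.13, adjusted edgeR p = 7.8e-16), by 0.55 from 24 to 28 months (standard error 0.14, adjusted edgeR p = 0.00939) and by 2.46 from 3 to 28 months (standard error 0.14, adjusted edgeR p = 2.9e-27). In single batches the step from 24 to 28 months was -0.40, -0.74 and -0.52 and none of them called it. The 3 maternal RNAs and the paternal Dlk1 were thus all lower at 9 than at 3 months. Rtl1 and Dio3, the other coding genes of the cluster, had medians of 0 CPM and at most 0.118 CPM and were not tested.

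**Figure D3:**
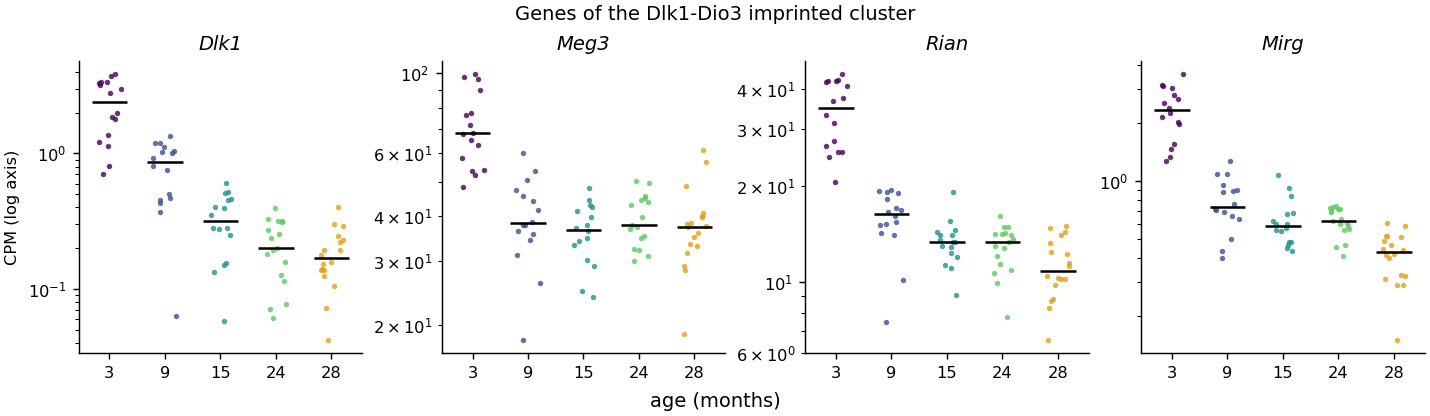
Dlk1, Meg3, Rian and Mirg in every mouse by age in months, in CPM on a log axis with a separate range for each gene. Bars are medians. All 4 genes are highest at 3 months. The Dlk1 median falls at each later age, to 0.318 CPM at 15 months and 0.169 CPM at 28 months. The Meg3 median stays between 36.8 and 38.2 CPM from 9 months on.

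Markers of 12 other cell groups were read beside these falls, 5 genes for each. Between 3 and 9 months 0 of the 60 markers were called by edgeR and 0 by DESeq2, and 5 had an unadjusted edgeR p-value under 0.05. Adipocyte markers, of interest because Dlk1 marks fat precursors, summed to between 11.2 and 65.2 CPM at 3 months and between 14.1 and 103 CPM at 28 months, with 2 of 5 higher at 28 months. Mesothelial markers were all higher at 28 months (5 of 5, median log2 fold change 1.25), with sums between 1.29 and 6.30 CPM at 3 months and between 2.8 and 14.5 CPM at 28 months. Markers of dividing cells were lower (4 of 5), with sums between 242 and 627 CPM at 3 months and between 294 and 471 CPM at 28 months, and so were B cell markers (4 of 5), with sums between 7.44 and 85.8 CPM and between 6.73 and 29.1 CPM. Macrophage markers (4 of 5) and endothelial markers (4 of 5) were higher, with sums of 97.5 to 153 CPM against 92.2 to 228 CPM and of 89.6 to 107 CPM against 93.2 to 131 CPM. Of the fibroblast markers 1 was higher and 2 were lower, of the epithelial markers 2 were lower, of the enteric glia markers 1 was lower, and for smooth muscle, enteric neurons and T cells 0 of 5 were called by edgeR, 0 by DESeq2 and 0 at an unadjusted p under 0.05. No marker was at 0 in every mouse. The part of these cell groups in the changes was not tested, and in bulk tissue fewer cells of a type cannot be told apart from less RNA per cell.

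Igf2, H19 and Cdkn1c lie on distal chromosome 7. Igf2 encodes a fetal growth factor and is read from the paternal copy, and H19 is a maternally expressed long noncoding RNA that shares enhancers with it. Igf2 (ENSMUSG00000048583, 142650766 to 142666816, minus strand) overlaps Gm49394 on the same strand, so its counts may leave out shared reads. Igf2 ranged from 0.0974 to 0.552 CPM at 3 months (median 0.208), from 0.130 to 0.531 CPM at 9 months (median 0.253) and from 0.0833 to 0.488 CPM at 15 months (median 0.238). It ranged from 0.142 to 0.506 CPM at 24 months (median 0.361) and from 0.139 to 0.553 CPM at 28 months (median 0.379), and 16 of the 18 oldest mice lay above the median at 3 months. The ranges of all ages overlapped, and every median stood on 12 read pairs or fewer.

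Igf2 rose by 0.54 on the log2 scale from 3 to 28 months (standard error 0.19, adjusted edgeR p = 0.0167). The log2 fold change was 0.30, 0.21 and 1.14 in the 3 batches, so it was called in the third batch alone, and it was 0.41 without the 5 mice of low muscle content (adjusted edgeR p = 0.0930). The rise from 15 to 24 months, by 0.49 (standard error 0.19, adjusted edgeR p = 0.0993), stood at the threshold. It was lost when any of 25 of the 33 mice was left out, and the log2 fold change ran from 0.41 to 0.58 over all 33 fits that left out 1 mouse. DESeq2 gave 0.50 with an adjusted p of 0.101.

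H19 (ENSMUSG00000000031, 142575529 to 142578143, minus strand) had medians of 0.168, 0.150, 0.187, 0.238 and 0.172 CPM at the 5 ages in order. Its highest mice, at 0.952 CPM and 0.702 CPM, were 24 and 28 months old, and it was at 0 counts in 1 mouse at 9 months. With no filter on low counts, its log2 fold change from 3 to 28 months was 0.21 (standard error 0.29, adjusted edgeR p = 0.688), and 0 of the 5 comparisons called it. Over the 83 mice, with age and batch removed, H19 and Igf2 had a Pearson's r of 0.15 and a Spearman's rho of 0.16 (adjusted permutation p = 0.171 and 0.150).

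Cdkn1c encodes p57, an inhibitor of cyclin-dependent kinases that stops division, and is read from the maternal copy. The gene (ENSMUSG00000037664) lies from 143458339 to 143461050 on the minus strand. Cdkn1c ranged from 8.28 to 14.1 CPM at 3 months (median 9.74), from 7.39 to 11.4 CPM at 9 months (median 9.32) and from 6.38 to 10.1 CPM at 28 months (median 7.93). At 15 and 24 months its medians were 8.27 and 8.15 CPM. Of the 18 mice at 28 months, 17 lay below the median at 3 months and 11 lay below every mouse at 3 months. Cdkn1c fell by 0.42 on the log2 scale from 3 to 28 months (standard error 0.07, adjusted edgeR p = 1.8e-06), and by 0.37, 0.29 and 0.56 in the batches, with the second not called. The first interval was less firm, with a log2 fold change of -0.22 (standard error 0.07, adjusted edgeR p = 0.0623) and of -0.12 without the 5 mice of low muscle content (adjusted edgeR p = 0.491). Leaving out mouse 10, 13, 15 or 16 at 3 months or mouse 1 at 9 months ended that call too, with log2 fold changes between -0.25 and -0.19 over all such fits, and no single batch called it (-0.18, -0.29 and -0.19).

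The other inhibitors and cyclins that govern entry into the cycle were counted beside Cdkn1c. Of 14 genes 13 were tested, and 6 were lower and 0 higher at 28 than at 3 months, where 25.9% of all tested genes were lower and 23.5% higher. The median log2 fold change of the 13 was -0.05. Cdkn2b, an inhibitor of CDK4 and CDK6, fell by 0.37 (standard error 0.08, adjusted edgeR p = 4.3e-05) and Ccnd3, the cyclin D3 gene, by 0.37 (standard error 0.06, adjusted edgeR p = 2.3e-07). Cdkn2b was -0.50, -0.28 and -0.24 in the batches and was called in the first alone, and Ccnd3 was called in each. The list therefore held both an inhibitor and a cyclin among its falls.

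Plagl1 and Peg3 encode zinc finger proteins read from the paternal copy, and Plagl1 is known as a regulator of other imprinted genes. Plagl1 (ENSMUSG00000019817, chromosome 10, 13060504 to 13131694, plus strand) ranged from 3.59 to 14.5 CPM at 3 months (median 9.06) and from 4.04 to 8.49 CPM at 28 months (median 6.08), with medians of 7.39, 6.90 and 7.11 CPM between these ages. All 18 mice at 28 months lay below the median at 3 months, although the ranges overlapped. The 3-month mice with few smooth muscle markers, mice 10, 12 and 16, had 4.13, 5.07 and 3.59 CPM. Plagl1 fell by 0.48 on the log2 scale from 3 to 28 months (standard error 0.11, adjusted edgeR p = 0.000208). No step between neighboring ages was called, and a course other than a straight line was not called either (adjusted edgeR p = 0.561). With smooth muscle and fibroblast scores as covariates the step from 3 to 9 months was -0.25 and was called (adjusted edgeR p = 0.0550). The fall was 0.42, 0.59 and 0.40 in the batches, the third not called.

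Peg3 (ENSMUSG00000002265, chromosome 7, 6703892 to 6730431, minus strand) had a median of 15.0 CPM at 3 months (8.61 to 20.8), 12.2 CPM at 9 months (5.35 to 16.6), 10.5 CPM at 15 months (7.70 to 16.9), 11.6 CPM at 24 months (8.69 to 15.6) and 13.5 CPM at 28 months (8.66 to 20.6). The levels were thus lowest in midlife and overlapped at all ages. Peg3 fell by 0.40 from 3 to 9 months (standard error 0.12, adjusted edgeR p = 0.0343), with 15 of 16 mice below the median at 3 months, and a fit of only these ages gave 0.39 with an adjusted edgeR p of 0.118. In the batches this step was -0.40, -0.24 and -0.55 and was called in none. Its course was not a straight line (adjusted edgeR p = 0.00683). From 3 to 28 months the log2 fold change was -0.13 with an interval from -0.35 to 0.10 (adjusted edgeR p = 0.392). With smooth muscle and fibroblast scores as covariates this value was -0.26 (adjusted edgeR p = 0.0231).

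Mest encodes an enzyme-like protein of the alpha/beta hydrolase fold, is read from the paternal copy and rises with growth of fat tissue. The gene (ENSMUSG00000051855) lies on chromosome 6 from 30723547 to 30748465 on the plus strand. Mest had medians of 2.89, 2.08, 2.19, 2.25 and 2.24 CPM at the 5 ages, with a range from 0.844 to 3.98 CPM at 3 months and from 0.873 to 3.00 CPM at 28 months. Mice 10, 12 and 16 at 3 months, those with few smooth muscle markers, were low, with 0.881, 0.844 and 0.898 CPM. The log2 fold change from 3 to 28 months was -0.26 (standard error 0.15, adjusted edgeR p = 0.153). Without the 5 mice of low muscle content it was -0.45 and was called (adjusted edgeR p = 0.00102), and with smooth muscle and fibroblast scores as covariates it was -0.43 (adjusted edgeR p = 0.000435). Leaving out any of these 3 mice alone also called the change from 3 to 28 months, with -0.32 as the lowest value, so this result for Mest rests on how such mice are treated. The step from 3 to 9 months was called with the marker scores as covariates, at -0.42 (adjusted edgeR p = 0.00812).

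Grb10 and Igf2r restrain the signal of the growth factors. Grb10 encodes an adapter that binds the insulin and IGF1 receptors and damps their signal. Grb10 (ENSMUSG00000020176, chromosome 11, 11930508 to 12038683, minus strand) had medians of 12.6, 11.5, 11.2, 12.3 and 12.1 CPM at the 5 ages, with a range from 7.36 CPM to 15.8 CPM over all mice. It differed over the 5 ages (adjusted edgeR p = 0.0944), with no pair of compared ages called in the fit over all mice. From 3 to 28 months the log2 fold change was 0.08 with an interval from -0.06 to 0.21 (adjusted edgeR p = 0.385). From 15 to 24 months it was 0.16 with an interval from 0.02 to 0.30 (adjusted edgeR p = 0.142), and 15 of 17 mice at 24 months lay above the median at 15 months. This step was called without the 5 mice of low muscle content (0.16, adjusted edgeR p = 0.0782) and with only these ages fitted (0.16, adjusted edgeR p = 0.0430).

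Members were also compared with the smooth muscle markers over the 83 mice, with age and batch removed, after the marker levels had been seen. Pearson's r with the mean log2 level of these markers was 0.79 for Mest, 0.72 for Plagl1, 0.65 for Grb10, 0.58 for Meg3 and 0.57 for Peg3 (adjusted permutation p = 2.0e-05 for each over the 10 members, from the smallest raw p that 100000 resamples can give, 1e-05). Spearman's rho for the same genes was 0.65, 0.57, 0.66, 0.51 and 0.44 (adjusted permutation p of at most 6.0e-05). Without the 2 mice farthest from the median of the score, r was 0.74, 0.62, 0.66, 0.59 and 0.57. For Meg3, r was 0.77, 0.25 and 0.71 in the batches, and for the other 4 genes it lay between 0.53 and 0.85. Dlk1 had an r of 0.23 and a rho of 0.29 (adjusted permutation p = 0.0485 and 0.0117), with an r of 0.38 without the 2 farthest mice and of 0.44, 0.17 and 0.28 in the batches. H19 had an r of 0.28 and a rho of 0.29 (adjusted permutation p = 0.0177 and 0.0117), with 0.25 without the farthest mice and 0.23, 0.26 and 0.35 in the batches. Igf2 (0.17), Cdkn1c (-0.17) and Igf2r (-0.07) were not called. Without the 5 mice of low muscle content the log2 fold change from 3 to 28 months was -3.52 for Dlk1 and -0.96 for Meg3.

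**Figure D4:**
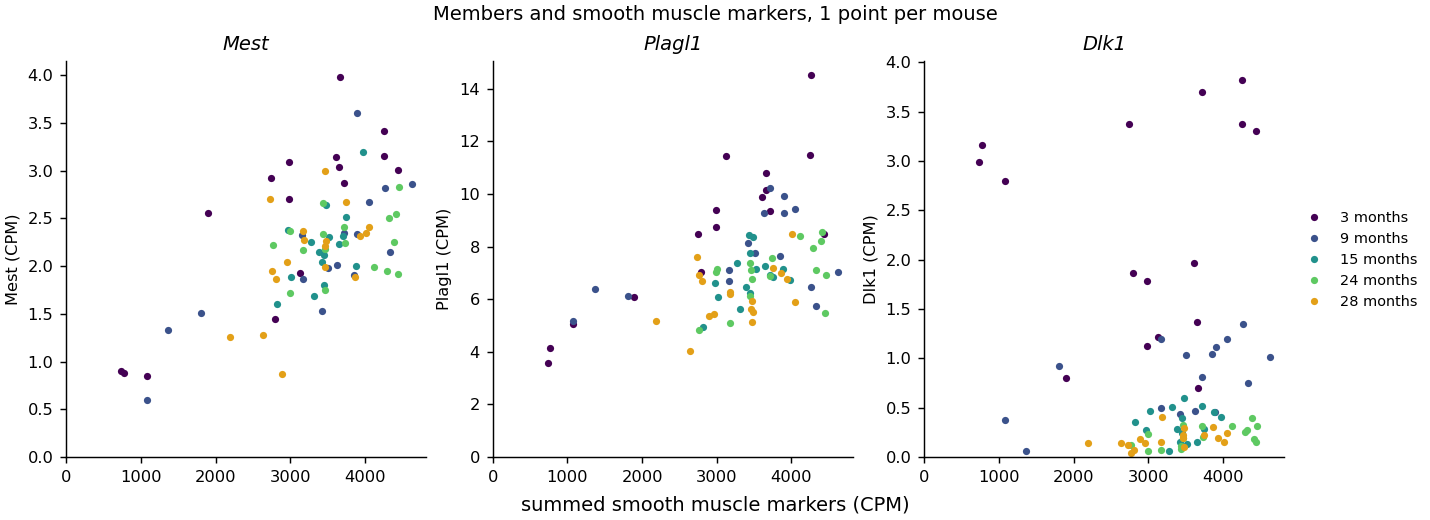
Mest, Plagl1 and Dlk1 against the summed level of 5 smooth muscle markers, both in CPM on linear axes, 1 point per mouse colored by age. The 5 mice with sums of at most 1367 CPM have 0.601 to 1.33 CPM of Mest and 3.59 to 6.39 CPM of Plagl1. Their Dlk1 levels are 2.79 to 3.17 CPM in the 3 mice at 3 months and 0.372 and 0.0635 CPM in the 2 mice at 9 months, the lowest levels of that age.

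Igf2r encodes the receptor that takes up IGF2 and leads it to lysosomes. It is read from the maternal copy in most mouse tissues, because Airn, a paternally expressed antisense RNA that starts within Igf2r, silences the other copy. Igf2r (ENSMUSG00000023830) lies on chromosome 17 from 12682406 to 12769664 on the minus strand and Airn from 12741311 to 12860136 on the plus strand. Their annotated exons share 0 bases, and the counting used the strand. Airn had medians of 10.26, 10.42, 11.97, 9.31 and 8.84 CPM at the 5 ages. Igf2r had medians of 169, 172, 183, 163 and 154 CPM. The log2 fold change of Igf2r from 3 to 28 months was -0.03 with an interval from -0.19 to 0.13 (adjusted edgeR p = 0.818). The 3-month mice lay close together, from 151 to 189 CPM, whereas the range was 77.9 to 354 CPM at 15 months and 131 to 262 CPM at 28 months. Leaving out mouse 16 at 15 months, which had the lowest level of Igf2r, made the log2 fold change from 15 to 24 months -0.21 (adjusted edgeR p = 0.0545) in place of -0.15 (adjusted edgeR p = 0.263). Leaving out mouse 8 at 15 months, which had the highest level, made it -0.067 (adjusted edgeR p = 0.637).

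The mice with the 3 highest levels of Igf2r were the mice with the 3 lowest levels of Airn. These mice were singled out after their values were seen. Mouse 8 at 15 months had 354 CPM of Igf2r and 0.10 CPM of Airn, from 10624 and 3 read pairs, where the medians at that age were 183 and 11.97 CPM. Mouse 13 at 28 months had 262 CPM of Igf2r and 4.04 CPM of Airn, and mouse 14 at 28 months had 251 CPM and 1.52 CPM, where the medians at that age were 154 and 8.84 CPM. In ratio to the median of their age, Igf2r was 1.93, 1.70 and 1.63 times as high in these mice, and Airn was 0.00836, 0.457 and 0.172 times as high. Mouse 8 and mouse 13 were in library batch 1 and mouse 14 in batch 2.

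In the other 80 mice Igf2r lay between 77.9 and 215 CPM and Airn between 5.55 and 15.6 CPM. Over these 80 mice, with age and batch removed, the levels rose together, with a Pearson's r of 0.35 and a Spearman's rho of 0.60, and an r of 0.73 without the 2 mice farthest from the median of Igf2r. These values are a description, since the 3 mice were set apart by their levels, and the points share the depth and the makeup of each library. Among the 80, mouse 16 at 28 months had 202 CPM of Igf2r and 6.55 CPM of Airn, 1.31 and 0.741 times the medians of its age. Kcnq1ot1, a paternally expressed antisense RNA of a different imprinted cluster, had no mouse near 0 and ranged from 1.29 to 3.14 CPM. Slc22a3, a gene near Igf2r, had 3.30 CPM in mouse 8 at 15 months, where the other mice had 1.55 to 2.82 CPM. At 28 months it had 5.74 CPM in mouse 13 and 3.43 CPM in mouse 14, where the other mice had 1.86 to 4.12 CPM.

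**Figure D5:**
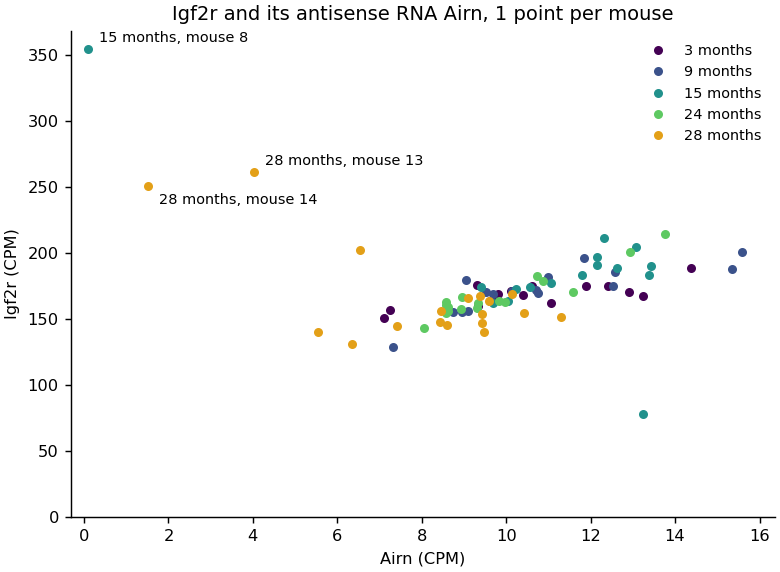
Igf2r against Airn in CPM, on linear axes, 1 point per mouse colored by age in months. The 3 labelled mice at the upper left have 354, 262 and 251 CPM of Igf2r with 0.10, 4.04 and 1.52 CPM of Airn, and the other 80 mice lie between 77.9 and 215 CPM of Igf2r.

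Of the 4 pairs of members compared over mice, Dlk1 and Meg3 had an r of 0.31 and a rho of 0.31 with age and batch removed (adjusted permutation p = 0.00788 and 0.0160, n = 83). The r was 0.38, 0.25 and 0.30 in the batches and 0.29 without the 2 mice farthest from the median of Dlk1, and it was 0.66 when age was left in. Plagl1 and Cdkn1c had an r of -0.33 and a rho of -0.24 (adjusted permutation p = 0.00788 and 0.0607), with -0.14, -0.23 and -0.52 in the batches, -0.21 without the farthest mice and -0.02 when age was left in. Igf2 and its receptor Igf2r had an r of 0.19 and a rho of 0.16 (adjusted permutation p = 0.117 and 0.150). In the batches that r was 0.10, -0.02 and 0.49. Smooth muscle markers, whose r was 0.72 with Plagl1, 0.58 with Meg3 and 0.23 with Dlk1, were not removed from these correlations. The 3-month mice with few such markers, mice 10, 12 and 16, had 4.13, 5.07 and 3.59 CPM of Plagl1. Their Cdkn1c levels were 13.8, 10.8 and 14.1 CPM, and those of mice 4 and 6 at 9 months were 8.72 and 7.94 CPM.

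Further genes of the pathway were taken from lists chosen with earlier results of these data known. Of 17 genes of IGF and insulin signaling 14 were tested, and 8 were higher and 2 lower at 28 than at 3 months, against 23.5% higher and 25.9% lower among all tested genes. Their median log2 fold change was 0.18. Irs2, which passes on the signal of the insulin receptor, rose by 0.77 (standard error 0.10, adjusted edgeR p = 5.4e-09) and Igfbp5, which binds IGFs outside the cell, by 0.75 (standard error 0.09, adjusted edgeR p = 1.6e-10). Igfbp5 had a median of 94.6 CPM at 3 months (74.1 to 112) and of 144 CPM at 28 months (105 to 224). The genes with the falls were Igf2bp1, by 1.56 (standard error 0.15, adjusted edgeR p = 2.4e-14), and Igf2bp2, by 0.19 (standard error 0.05, adjusted edgeR p = 0.000962), both encoding proteins that bind messenger RNAs, among them that of Igf2. Irs2, Igfbp5 and Igf2bp1 were called in each of the batches, and Igf2bp2 (-0.19, -0.16 and -0.17) in the first alone.

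Other imprinted genes were listed by the parental copy they are known to be read from, and the copy read in colon was not measured. Of 19 tested genes listed as paternal, 4 were higher and 6 lower at 28 than at 3 months (median log2 fold change -0.01). Of 16 tested genes listed as maternal, 4 were higher and 3 lower (median -0.05). Over all tested genes 23.5% were higher and 25.9% lower. The count of 10 called paternal genes was 6 with no filter on low counts or with at least 10 counts required in every mouse, and 5 at a threshold of 0.05. Among the paternal genes, Sfmbt2, a Polycomb-related gene, rose by 1.72 (standard error 0.20, adjusted edgeR p = 5.8e-11). Its median was 0.206 CPM at 3 months (0.0460 to 0.425) and 0.587 CPM at 28 months (0.329 to 1.12). The 3-month median lay below 0.282 CPM, the level that the filter asks for, and the 28-month range lay above it. Rasgrf1, an exchange factor for Ras, rose by 1.09 (standard error 0.13, adjusted edgeR p = 7.9e-11). Nnat fell by 0.43 (standard error 0.21, adjusted edgeR p = 0.0894) and Usp29 by 0.41 (standard error 0.20, adjusted edgeR p = 0.0894), and both calls were lost with DESeq2 (adjusted p = 0.105 and 0.106). Among the maternal genes, the organic cation transporter Slc22a3, which lies near Igf2r, rose by 0.81 (standard error 0.12, adjusted edgeR p = 3.0e-08) and Asb4 by 0.43 (standard error 0.10, adjusted edgeR p = 0.000287), and the largest falls were those of Mirg and Rian given above. Sfmbt2, Rasgrf1 and Slc22a3 were called in each of the batches, Asb4 (0.23, 0.40 and 0.77) in the third alone, Nnat (-0.87, -0.31 and 0.00036) in the first alone and Usp29 (-0.36, -0.66 and -0.31) in none.

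Of 11 tested genes that keep imprints or DNA methylation, 1 was higher and 4 were lower at 28 than at 3 months, with a median log2 fold change of -0.07. Over all tested genes 49.4% were called. Zfp57, which holds methylation at imprinted control regions, fell by 0.24 (standard error 0.09, adjusted edgeR p = 0.0190), Uhrf1, the partner of Dnmt1, by 0.18 (standard error 0.09, adjusted edgeR p = 0.0868), and Tet2, which oxidizes methylated cytosine, rose by 0.16 (standard error 0.06, adjusted edgeR p = 0.0234). Without the 5 mice of low muscle content, 2 of the 11 genes were called, and Zfp57 (adjusted edgeR p = 0.118) and Uhrf1 (0.239) were not among them. In the batches Zfp57 (-0.22, -0.077 and -0.38) was called in the third alone, and Uhrf1 (-0.21, 0.0068 and -0.28) and Tet2 (0.18, 0.069 and 0.26) in none. From 3 to 9 months, the interval in which Meg3, Rian and Mirg fell, 0 of the 11 genes were called by edgeR and 1 by DESeq2, and 2 had an unadjusted edgeR p under 0.05.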

How the data were processed

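Colon RNA of 83 mice was sequenced as stranded polyadenylated libraries. Per the labels and the methods, the authors used cutadapt 2.8 for trimming, PrinSeq Lite for quality filtering and HISAT2 2.1.0 for alignment to GRCm38, kept uniquely mapped pairs with SAMtools 1.9 and counted them on the transcript's strand with featureCounts (Subread 2.0.1). The deposited values are raw counts per gene and mouse, with replicates not pooled. Genes were named from a GRCm38 annotation that held 37652 of the 37764 genes.

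Tests were run in R 4.3.3 with edgeR 4.0.16 (filterByExpr by age, TMM, quasi-likelihood fit with age and library batch over all mice, Benjamini-Hochberg adjustment over all 18325 genes that passed, threshold 0.1, the level used by the authors). The test was checked on simulated counts. Departure from a line was tested with the higher polynomial terms of age. Mice were grouped by the age in their labels, and p-values measure the spread between mice. For correlations, log2 CPM with a prior count of 2 was used after removing age and batch, with two-sided permutation tests of 100000 resamples, adjusted over the 4 pairs or the 10 members.

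The members and lists were chosen with earlier results of these data known. All 10 members are named, and of each related list the called genes with the 2 largest rises and the 2 largest falls from 3 to 28 months. Genes of the Dlk1-Dio3 cluster, Airn and Kcnq1ot1 were named beside the members they belong with. Alternatives were DESeq2 1.42.0, its size factors, other filters, no batch term, a replicate block, marker scores as covariates, a threshold of 0.05, only the 2 ages compared, each batch alone and leaving out each mouse, with dispersions kept from the full fit.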

Additional observations from a re-analysis of the deposited data

How the results depend on the processing

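The calls of Dlk1, Meg3, Plagl1, Cdkn1c and Igf2 from 3 to 28 months kept their direction and their side of the threshold under every alternative in which all batches were fitted and the gene was tested. Dlk1 ranged from -3.65 to -3.46, Meg3 from -1.05 to -0.91, Plagl1 from -0.63 to -0.45, Cdkn1c from -0.42 to -0.34 and Igf2 from 0.41 to 0.56 on the log2 scale over the alternatives other than leaving out 1 mouse. Leaving out 1 mouse at a time gave -3.73 to -3.57 for Dlk1, -0.96 to -0.87 for Meg3, -0.54 to -0.40 for Plagl1, -0.45 to -0.39 for Cdkn1c and 0.47 to 0.66 for Igf2, and called each of them in every fit. With at least 10 counts required in every mouse, Dlk1 and Igf2 were not tested, which left 3 called members from 3 to 28 months and 0 from 9 to 15 and from 15 to 24 months. Low counts limit H19, Igf2 and Dlk1 in late life.

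The called members from 3 to 9 months were 0, 2 and 2 in the 3 batches alone and 2 with only these ages fitted. From 9 to 15 months and from 15 to 24 months 0 were called in each of the batches, and from 3 to 28 months 3 in batch 2. The call from 15 to 24 months, that of Igf2, became 0 calls without the filter, without the batch term, with the replicate block, with DESeq2 and at a threshold of 0.05, and 2 calls (Igf2 and Grb10) without the mice of low muscle content or with only these ages fitted. With marker scores as covariates 1 member (Peg3) was called from 24 to 28 months, 5 departed from a straight line, and from 15 to 24 months Dlk1 was called (-0.75, adjusted edgeR p = 0.0967) in place of Igf2 (0.38, adjusted edgeR p = 0.210). Leaving out 1 mouse at a time gave 3 to 4 members from 3 to 9 months and 0 to 1 from 15 to 24 months. The cause of these shifts was not tested.

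Of the maintenance genes 3 were called with no filter or with marker scores as covariates, and 2 without the mice of low muscle content or at a threshold of 0.05. Of the other genes listed as paternal 6 were called with no filter or the stricter filter, and 5 at 0.05. The sign turned for Peg3 in batch 1 (0.10), for Mest in batch 3 (0.012), for Nnat in batch 3 (0.00036), for Uhrf1 in batch 2 (0.0068) and for Igf2r with marker scores as covariates (0.0022), without the mice of low muscle content (0.0061) and in batches 1 (0.0061) and 2 (0.055), all from 3 to 28 months. The correlation of Igf2 with Igf2r was called with a prior count of 0.5 (0.20, adjusted permutation p = 0.0909), and that of Plagl1 with Cdkn1c was -0.018 with age left in.

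Replicate numbers did not pair the mice: over 161 pairs of mice that share a number, the mean correlation of their deviations was 0.0021, and 27 pairs were over 0.1. With the replicate block the log2 fold change of Dlk1 from 3 to 28 months was -3.46 and 4 members were called from 3 to 9 months.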
